A study of Homo sapiens with 4 samples.

Results

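The protocadherins are the largest family of cadherin-type adhesion proteins, and 65 of the 15942 genes in the count table belong to them. They were taken by symbol, as every row beginning with PCDH apart from the Y-linked copy. The rows fall into 15 of the PCDHA cluster, 18 of the PCDHB cluster, 22 of the PCDHG cluster and 10 non-clustered genes. RNA came from H9 cells, an established line of human embryonic stem cells (hESCs) grown on Matrigel in E8-supplemented DMEM/F12, and all libraries were made from this line. The control group (siLuc) was transfected with small interfering RNA (siRNA) for luciferase, a firefly enzyme that human cells lack, and the other group (siUPF1) with siRNA for UPF1, an RNA helicase required for nonsense-mediated decay of transcripts with early stop codons. The series states its purpose as finding genes whose expression differs once UPF1 is lost. The treatment text, which is the same for every library, speaks of an siRNA against UPF3A and of actinomycin D, a transcription inhibitor, followed by several sampling times; which time a library belongs to is not stated. There were 2 libraries per group. Both control columns carry the same name; in table order they are control a and control b below. No source says whether replicate libraries were grown as separate cultures, so the p-values reflect library-to-library spread, which could be technical.

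Clustered protocadherins are transmembrane proteins with cadherin repeats, and many of them bind copies of themselves on a neighbouring cell. The PCDHA, PCDHB and PCDHG clusters lie in a row on chromosome 5. In PCDHA and PCDHG each variable exon has its own promoter and encodes the extracellular domain, and it is spliced to constant exons that all members of the cluster share. PCDHB members are single-exon genes with no constant part. Neurons switch on a small random choice of these promoters, which gives each cell a barcode for self-recognition, and the C-type members (PCDHAC1, PCDHAC2, PCDHGC3 and PCDHGC4 here) are less subject to that choice. Promoter choice depends on CTCF and cohesin, which join promoters to distant enhancers, and on DNA methylation. The non-clustered protocadherins are separate genes with their own tails, through which the delta-1 group can bind protein phosphatase 1 and the delta-2 group the WAVE actin regulator.

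Most clustered promoters share a short element around the letters CGCT, and the windows below are shown because the letters around it differ between the 3 clusters and, within PCDHA, between the C-type and the other members. Promoters (250 bases before to 50 after the start of a gene) were found for 46 of the 55 clustered rows in RefSeq on GRCh38.p14, and 45 of these had a complete window of 30 bases around CGCT. All are on the plus strand and printed 5′ to 3′, with CGCT in capitals. Where a promoter held several copies, the one most like the majority of its cluster is given. Of those shown, this applied to PCDHB2 and the C-type PCDHAC1, PCDHAC2, PCDHGC3 and PCDHGC4. A window does not by itself show that a promoter holds the shared element. Shown are the members that passed the test below and have a window, with a few that did not pass.
PCDHA1: ttggccacatgatgtCGCTgtacaccacaa
PCDHA10: aaagccaccggatgtCGCTgtcgtccacaa
PCDHA11: ttaggcgcaaggtgtCGCTctttacttggt
PCDHA12: tcagtcacatgatgtCGCTctacactcaga
PCDHAC1: cctagaaggtgtggtCGCTcacgttcaccg
PCDHAC2: tgagcagtccgggttCGCTgtccgccactt
PCDHB2: agagacgcggggtggCGCTgcagccttaga
PCDHB15: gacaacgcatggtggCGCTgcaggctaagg
PCDHB5: taggacgcctggtggCGCTgcaggctaaga
PCDHB16: gagaacgcgtggtggCGCTgcaggttaaga
PCDHGA8: taggactgtaagcgcCGCTgttcacctact
PCDHGC3: tgggactctgtgtgcCGCTgtcggccaatg
PCDHGC4: gctgagcccgggagcCGCTgtctgccaatc

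The PCDHA windows lie at chr5:140786087-140786116 for PCDHA1, chr5:140855842-140855871 for PCDHA10, chr5:140868884-140868913 for PCDHA11, chr5:140875245-140875274 for PCDHA12, chr5:140926221-140926250 for PCDHAC1 and chr5:140966366-140966395 for PCDHAC2. Those of PCDHB lie at chr5:141094545-141094574 for PCDHB2, chr5:141135180-141135209 for PCDHB5, chr5:141182311-141182340 for PCDHB16 and chr5:141245315-141245344 for PCDHB15. Those of PCDHG lie at chr5:141392569-141392598 for PCDHGA8, chr5:141475881-141475910 for PCDHGC3 and chr5:141484953-141484982 for PCDHGC4. On both strands, CGCT alone occurred in 70.01% of all 35116 RefSeq promoters of this length. It occurred in 12 of 13 PCDHA, 13 of 13 PCDHB and 20 of 20 PCDHG promoters, so these letters alone do not set the clusters apart. Longer runs that contain it were rarer. TGTCGCT stood in 1.76% of all promoters and in 10 of 13 PCDHA, 1 of 13 PCDHB and 3 of 20 PCDHG promoters; the PCDHA promoters without it were PCDHA9 and the C-type PCDHAC1 and PCDHAC2. GGTGGCGCT stood in 0.501% of all promoters, in 13 of 13 of PCDHB and in 0 of 13 and 0 of 20 of the others. GCCGCTGT stood in 1.63% of all promoters and in 11 of 20 PCDHG promoters, and in 0 of 13 of PCDHA and of PCDHB. These runs were chosen after frequent short words in the same promoters had been counted, and a match describes letters only. Of the 30 letters, PCDHA1 shared 28 with the PCDHA majority and PCDHA10 shared 24, PCDHA12 22, PCDHA11 18, PCDHAC2 18 and PCDHAC1 13. The PCDHA windows not shown shared 24 to 28. That majority was taken from promoters with only 1 CGCT window. It leaves out PCDHA7, with 2, and PCDHAC1 and PCDHAC2, with 3 each. The C-type rows were thus compared with a majority of other rows, which those rows helped to set.

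The siRNA target was checked first. UPF1 stood at 219 and 205 CPM (counts scaled to a library total of 1000000, corrected by the trimmed mean of M-values) in control a and control b, and at 60.8 and 78.2 CPM in siUPF1 replicates 1 and 2. The groups did not overlap, and 32.8% of the control mean was left (212 ± 10.1 CPM against 69.5 ± 12.3 CPM, SD, n = 2 each). The log2 fold change was -1.60 (SE 0.07; adjusted p = 1.06e-102 in the edgeR quasi-likelihood test, Benjamini-Hochberg over all 15557 genes tested). Library totals ran from 8887239 to 11200973 counts. All 8 listed markers of pluripotent cells were present, and 5 of them fell, POU5F1 by 0.25 on the log2 scale, where 9.14% of all genes tested fell and 16.8% rose; their summed level was 1750 to 1882 CPM in the controls and 1500 to 1629 CPM in siUPF1. In edgeR 0 of the 8 rose (0 also at an unadjusted p below 0.05, in DESeq2 and in limma-voom). Of the other cell types looked for, neural markers summed to 283 and 290 CPM in the controls and 221 and 222 CPM in siUPF1, with 3 of 7 lower and 1 higher. DCX, a microtubule protein of young neurons, went from 55.6 and 62.3 CPM to 22.8 and 31.4 CPM. MAP2, the 1 that was higher, went from 22.1 and 23.2 CPM to 29.8 and 27.9 CPM. PAX6, SOX1 and STMN2 did not pass. Mesenchymal markers summed to 532 to 569 CPM over all libraries (2 of 5 tested higher). Mesendoderm and endoderm markers went from 9.84 and 9.98 to 3.50 and 3.74 CPM (2 of 2 tested lower, with 8 listed). Trophoblast and amnion markers went from 15.8 and 16.9 to 21.1 and 22.2 CPM (1 of 3 tested higher, with 7 listed). Among defining markers, NEUROD1, COL3A1, DCN, LUM, TBXT, EOMES, SOX17, GATA4, GATA6, CGB5, HAND1, ISL1 and VTCN1 were either without a row or below the filter. In bulk RNA, a change in the number of cells of a type and a change in RNA per cell cannot be told apart, and the part of these markers in the protocadherin values was not tested.

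All 65 protocadherins with a row passed the low-count filter and were tested. PCDH9 of the delta-1 group, PCDH15 and the C-type PCDHGC5 had no row, so the family is not complete here. After UPF1 knockdown 8 rose, 5 fell and 52 did not pass an adjusted p of 0.05, so 20% were called against 25.9% of all genes tested. By direction, 16.8% of all genes rose (2613) and 9.14% fell (1422). When each library's trend on reads per base was removed, these all-gene counts were 2258 (14.5%) and 1981 (12.7%), and 7 protocadherins rose and 7 fell. In DESeq2, 4 members rose and 2 fell, against 8.19% and 2.99% of all genes. The share of members called was thus no higher than that of the whole table. The family median log2 fold change was 0.13, against -0.01 over all genes; it was 0.22 without siUPF1 replicate 1, -0.07 without replicate 2 and 0.03 with the trend removed, so its sign rests on replicate 2. The clusters differed in their calls, as the plot of fold change for each gene shows: 5 of 15 PCDHA rows rose and 0 fell, 2 of 18 PCDHB rows fell and 0 rose, 1 of 22 PCDHG rows rose and 1 fell, and 2 of 10 non-clustered genes rose and 2 fell. Their median log2 fold changes were 0.23, -0.09, 0.24 and 0.08. Without siUPF1 replicate 2 the medians were -0.06 in PCDHA, -0.26 in PCDHB, -0.03 in PCDHG and 0.01 in the non-clustered genes, and without replicate 1 they were 0.48, 0.01, 0.40 and 0.12. The sign of all 3 cluster medians thus changed when 1 siUPF1 library was left out, and no test compared the clusters with each other. For the counts of 0, an unadjusted edgeR p below 0.05 was reached by 0 PCDHA rows downward and 1 PCDHB row upward, and neither DESeq2 nor limma-voom called any.

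**Figure D1:**
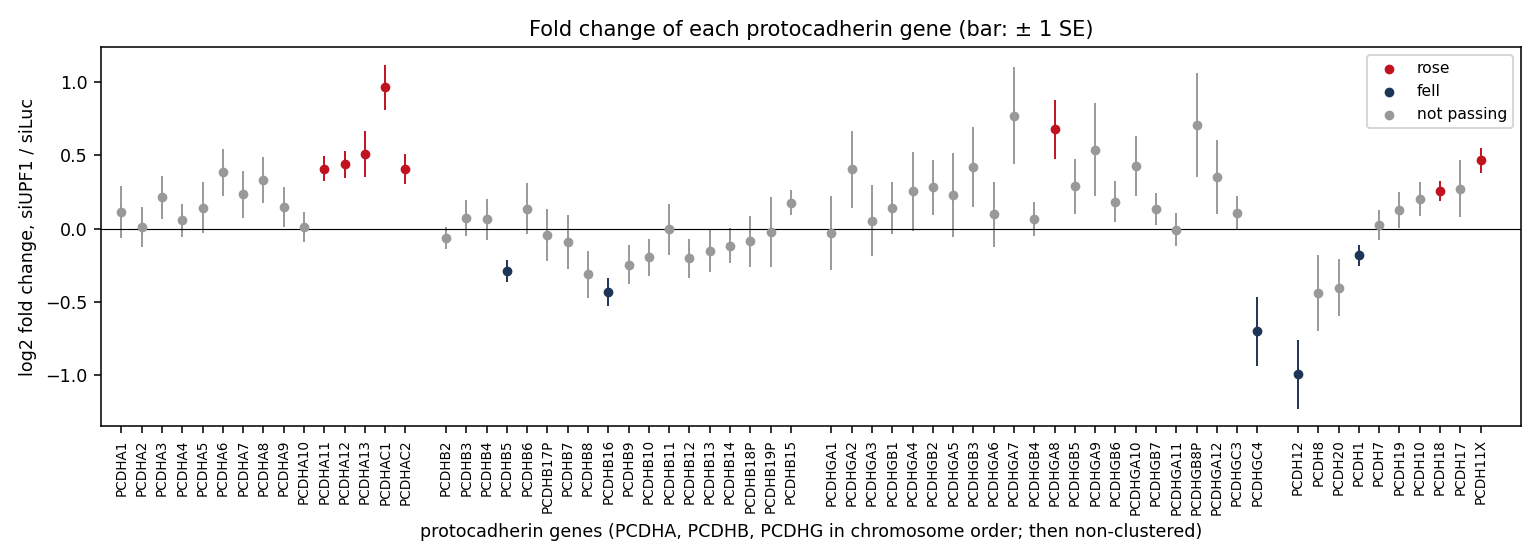
Log2 fold change (siUPF1 over siLuc) of each of the 65 protocadherin rows, with bars of 1 SE, in chromosome order within PCDHA, PCDHB and PCDHG and then for the non-clustered genes. Red points rose and blue points fell at an adjusted p of 0.05, and grey points did not pass; the 5 red points of PCDHA stand together at its 3′ end.

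Summed over members, PCDHA RNA stood at 314 and 306 CPM in the controls and at 336 and 422 CPM in siUPF1. Both siUPF1 sums lay above both controls, and replicate 2 stood well above replicate 1. PCDHB summed to 489 and 483 CPM in the controls and to 414 and 474 CPM in siUPF1. PCDHG summed to 203 and 217 CPM in the controls and to 207 and 258 CPM in siUPF1, so its groups overlapped, while PCDHB was lower in both siUPF1 libraries. The non-clustered genes summed to 551 and 557 CPM in the controls and 558 and 569 CPM in siUPF1, a ratio of group means of 1.02. The corresponding ratios were 1.22 for PCDHA, 0.913 for PCDHB and 1.11 for PCDHG. These sums are set by their most abundant rows, and no test was made on them.

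**Figure D2:**
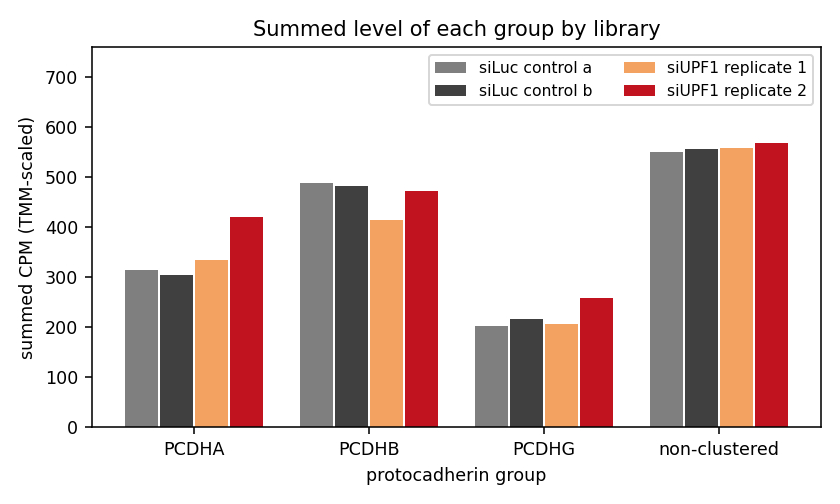
Summed level in CPM (vertical axis, from 0) of PCDHA, PCDHB, PCDHG and the non-clustered protocadherins, 1 bar per library. In all 3 clusters the siUPF1 replicate 2 bar is higher than the replicate 1 bar (422 against 336 CPM in PCDHA), while the non-clustered bars lie between 551 and 569 CPM.

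The siUPF1 libraries differed from each other in 1 direction across the clusters. Replicate 2 was above replicate 1 in 52 of 55 clustered rows (15 of 15 PCDHA, 18 of 18 PCDHB and 19 of 22 PCDHG), against 49.7% of all genes tested. The exceptions were PCDHGA10, PCDHGA12 and PCDHGB3, named here because they are the exceptions. The median ratio of replicate 2 to replicate 1 was 1.29 in PCDHA, 1.23 in PCDHB and 1.24 in PCDHG, against 1.051 in the non-clustered genes and 0.999 over all genes. The control ratio, b over a, had medians of 0.959, 0.977, 1.06 and 1.052 in the same 4 sets. Chi-square per degree of freedom over the 65 members was 0.952 between the controls, 2.12 between the siUPF1 libraries and 4.70 to 5.35 across groups. Over all genes it was 1.70, 2.85 and 8.65 to 9.42. The member values were scaled to the members' own sums, so they leave out any shift of the whole family and cannot be set against the all-gene values. The member sums were 1558 and 1562 CPM in the controls and 1515 and 1723 CPM in siUPF1 replicates 1 and 2. Apart from such a shift, the controls differed by no more than sampling noise over these members. Over the whole table they differed by more, and they were kept as 2 libraries. The counts of calls differed with the siUPF1 library that was kept: without replicate 1, 18 members rose and 3 fell (17.6% and 9.7% of all genes), and without replicate 2, 5 rose and 10 fell (14.4% and 9.62% of all genes).

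Rows of PCDHA, and of PCDHG, can share reads, since their transcripts end in the same constant exons. The most reads that all rows of a cluster can have in common is the count of its lowest row. In PCDHA the lowest row held 83 to 137 counts, 2.56% to 2.99% of the cluster's sum in a library. In PCDHG, without the pseudogene PCDHGB8P, it held 14 to 35 counts, 0.694% to 1.22% of the sum. The lengths behind the deposited RPKM values (reads scaled by length and library total) had a median of 2508 nt in PCDHA, against 5263 nt for the longest GENCODE transcript and 2866 nt of exon shared with other members. The longest transcript less the shared exons came to a median of 2397 nt, and 8 of 15 PCDHA rows lay within 10% of that figure. In PCDHG the table lengths had a median of 2434 nt, the longest transcripts 4623 nt and the shared exons 2181 nt, and 15 of 21 rows lay within 10% of the longest transcript less the shared exons (median 2424 nt). The table lengths of 8 of 15 PCDHA and 15 of 21 PCDHG rows were thus near the longest transcript less the shared exons. Of the PCDHA rows that rose, PCDHA11 and PCDHAC1 were outside that 10%, at 1.25 and 1.14 times the figure. PCDHA12, PCDHA13 and PCDHAC2 were within it. Of the called PCDHG rows, PCDHGC4 was within it and PCDHGA8 outside, at 1.66 times the figure. PCDHGA8 and the more abundant PCDHGB4 each had 4447 nt of exon shared with other members, against the cluster median of 2181 nt. The count of PCDHGA8 is therefore less certain. A length does not show which reads were counted, and whether the counts come from the variable exons alone was not tested. Reads shared by some rows of a cluster and not others cannot be seen from the lowest row.

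In PCDHA the 5 rows at the 3′ end of the cluster rose and the 10 before them did not pass. These 5 were PCDHA11, PCDHA12, PCDHA13 and the C-type members PCDHAC1 and PCDHAC2. The division between PCDHA10 and PCDHA11 was drawn after the values were seen and is a description with no test. PCDHAC1 had the largest log2 fold change of the cluster. It stood at 10.97 and 9.68 CPM in the controls and at 19.4 and 20.8 CPM in siUPF1. Both siUPF1 libraries were high, and the gap between the groups was larger than the spread within either. The log2 fold change was 0.97 (SE 0.16, adjusted p = 1.15e-08, edgeR quasi-likelihood test).

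PCDHAC2, the other C-type member, whose variable exon is the last before the constant exons, stood at 31.2 and 28.1 CPM in the controls and 37.0 and 41.4 CPM in siUPF1. The groups did not overlap, and its log2 fold change was 0.41 (SE 0.10, adjusted p = 0.000803 in edgeR). In DESeq2 its adjusted p was 0.0666, and without control b it was 0.117 in edgeR. PCDHA11 stood at 45.4 and 47.8 CPM in the controls and at 54.5 and 69.0 CPM in siUPF1, and PCDHA12 at 38.8 and 39.8 CPM against 47.8 and 58.5 CPM. In both the siUPF1 libraries were above the controls and replicate 2 was the highest. Their log2 fold changes were 0.41 (SE 0.09, adjusted p = 2.03e-05) and 0.44 (SE 0.09, adjusted p = 1.54e-05). Without siUPF1 replicate 2, PCDHA11 no longer passed (log2 fold change 0.23, adjusted p = 0.0567), whereas PCDHA12 did.

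PCDHA13, the lowest of the alternate members that rose, stood at 12.3 and 10.5 CPM in the controls and 14.8 and 17.5 CPM in siUPF1. Its groups did not overlap, and the log2 fold change was 0.51 (SE 0.16, adjusted p = 0.00778 in edgeR). It did not pass in DESeq2 (adjusted p = 0.163), with that trend removed (0.0508), without control b (0.24) or without siUPF1 replicate 2 (0.0954). The fit was repeated 12 times with another scaling, tool or filter, with a correction, or with a library left out, and PCDHAC1 and PCDHA12 were the PCDHA members that passed in all 12 refits. PCDHA12, PCDHA13 and PCDHAC2 overlap an annotated gene on the other strand in GENCODE, and whether the counts used strand is not stated.

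The 10 rows PCDHA1 to PCDHA10 had log2 fold changes of 0.01 to 0.38. In edgeR 0 of the 10 was called (2 upward at an unadjusted p below 0.05, 0 called by DESeq2 or limma-voom). PCDHA10, the most abundant PCDHA row per kilobase in the controls, stood at 37.6 and 36.0 CPM in the controls and 34.9 and 39.0 CPM in siUPF1, so the groups overlapped (log2 fold change 0.01, SE 0.10, adjusted p = 0.951). PCDHA1, the row with the lowest mean count, stood at 9.39 and 9.98 CPM against 8.60 and 12.2 CPM and overlapped too (log2 fold change 0.11, SE 0.18, adjusted p = 0.687). In each of the 10 the control and siUPF1 ranges overlapped. Without siUPF1 replicate 1, 5 of these 10 rows rose (PCDHA3, PCDHA6, PCDHA7, PCDHA8 and PCDHA9, named because they are these 5), and without replicate 2 none of them rose or fell and their median log2 fold change was -0.09.

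Summed CPM over PCDHA1 to PCDHA10 was 175 and 170 in the controls and 162 and 214 in siUPF1, and over PCDHA11 to PCDHAC2 it was 139 and 136 in the controls and 174 and 207 in siUPF1. The 5 rows at the 3′ end thus stood above the controls in both siUPF1 libraries, and the 10 before them stood below in one and above in the other. Within a library the share of PCDHA level per kilobase held by these 5 rows does not depend on the library's total. It was 39.5% and 39.8% in the controls and 47.0% and 44.4% in siUPF1. These 5 rows were set apart because they passed. A higher sum and share in siUPF1 thus follow from that choice and are no further support. The replicate with the lower PCDHA sum, replicate 1, had the higher share. The length derived for PCDHAC2 differed 1.18-fold between the siUPF1 libraries, so its part of the share is less certain. Over the 8 refits that kept all 4 libraries, 3 to 5 of the 5 rows were called, the lowest count coming from DESeq2. With the lowest row of the cluster subtracted from each library, all 5 were called and PCDHA6 rose as well. The log2 fold change of PCDHAC1 was then 2.86 and that of PCDHA13 1.25. That subtraction removes the upper limit of reads shared by all rows. PCDHAC1 held 97 counts in each control and the subtracted row 83 and 86, so these folds rest on small remainders. In the same refit PCDHA1 to PCDHA10 ranged from -0.60 to 0.87.

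**Figure D3:**
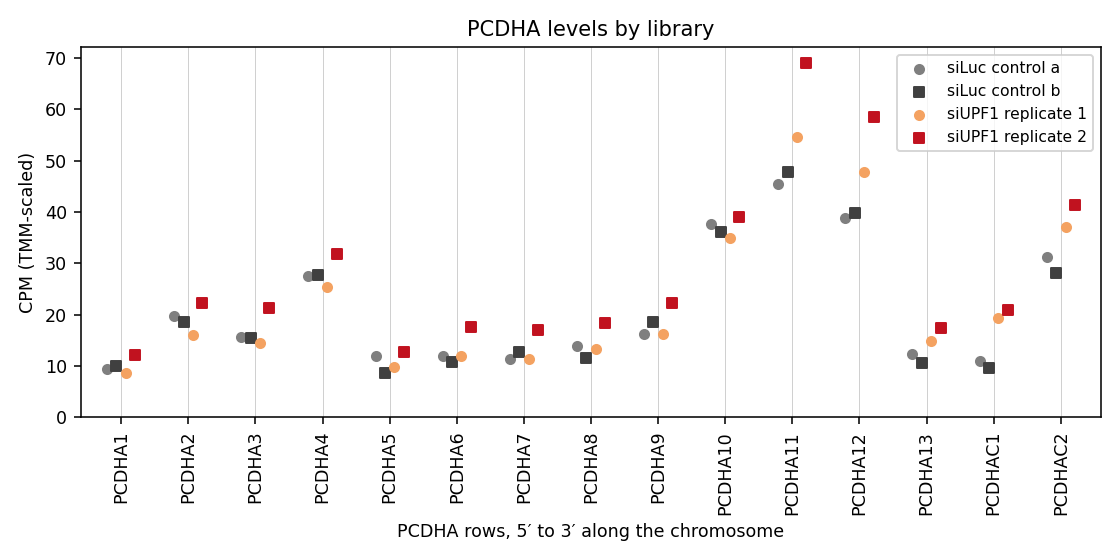
Level of each of the 15 PCDHA rows in CPM (vertical axis, linear from 0) in the 2 siLuc controls (grey) and siUPF1 replicates 1 (orange) and 2 (red), in chromosome order. From PCDHA11 to PCDHAC2 both siUPF1 points lie above both controls; from PCDHA1 to PCDHA10 the groups overlap.

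Both PCDHB members that passed the test fell. Like several rows of this cluster, both overlap an annotated gene on the other strand in GENCODE. PCDHB16 stood at 44.4 and 46.1 CPM in the controls and 32.3 and 34.6 CPM in siUPF1. The groups were well apart, and the log2 fold change was -0.43 (SE 0.10, adjusted p = 8.92e-05 in edgeR); it passed in all 12 refits. PCDHB5, the most abundant PCDHB row per kilobase at 32.0 CPM per kilobase in the controls, stood at 95.4 and 90.8 CPM in the controls and 74.0 and 78.2 CPM in siUPF1. Its groups did not overlap either (log2 fold change -0.29, SE 0.08, adjusted p = 0.00111), but without control a it did not pass (adjusted p = 0.0996).

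The other 16 PCDHB rows had log2 fold changes of -0.31 to 0.18 and adjusted p of 0.124 to 0.985. PCDHB2, the next most abundant, stood at 76.4 and 74.4 CPM in the controls and 69.1 and 74.8 CPM in siUPF1, which overlap (log2 fold change -0.06, adjusted p = 0.579). PCDHB15, the row at the 3′ end, stood at 45.0 and 46.0 CPM against 49.6 and 53.3 CPM; both siUPF1 libraries were higher, yet the row did not pass (log2 fold change 0.18, SE 0.09, adjusted p = 0.124). The pseudogene PCDHB19P had the fewest counts, at 5.32 and 4.39 CPM in the controls and 4.10 and 5.35 CPM in siUPF1. Of the 18 rows, 14 had a negative log2 fold change. Replicate 1 was the lower siUPF1 library in all 18: without replicate 2, 6 PCDHB rows fell, and without replicate 1, 2 fell and PCDHB15 rose. After removal of the trend on reads per base, 5 fell.

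In PCDHG 1 row rose and 1 fell, both at low levels. PCDHGA8 stood at 4.87 and 6.38 CPM in the controls and 7.70 and 10.3 CPM in siUPF1. The groups did not overlap (log2 fold change 0.68, SE 0.20, adjusted p = 0.00554 in edgeR), but it did not pass in DESeq2 (0.178), without control a (0.229) or without siUPF1 replicate 2 (0.17). PCDHGC4, a C-type isoform, stood at 5.32 and 6.88 CPM in the controls and 3.40 and 4.10 CPM in siUPF1. Both siUPF1 libraries were lower (log2 fold change -0.70, SE 0.24, adjusted p = 0.0154), and it did not pass in DESeq2 (0.253), without control b (0.312) or without siUPF1 replicate 1 (0.0813). PCDHGC4 was the only row of the cluster in which both siUPF1 libraries lay below both controls.

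The most abundant PCDHG rows did not pass. PCDHGB7 stood at 30.4 and 30.7 CPM in the controls and 29.5 and 37.4 CPM in siUPF1, PCDHGA11 at 29.1 and 31.5 CPM against 26.3 and 33.9 CPM, and PCDHGB4 at 27.8 and 27.3 CPM against 26.5 and 31.0 CPM. In all 3 the groups overlapped, with log2 fold changes of 0.14, -0.01 and 0.06 and adjusted p of 0.378, 0.971 and 0.721. PCDHGC3, a C-type isoform at a similar level, named outside the rule as the neighbour of PCDHGC4, stood at 26.8 and 27.1 CPM against 26.3 and 31.5 CPM (log2 fold change 0.10, SE 0.12, adjusted p = 0.543). The pseudogene PCDHGB8P had the fewest counts, at 1.36 and 1.40 CPM in the controls and 2.20 and 2.32 CPM in siUPF1; its groups did not overlap, but it did not pass (log2 fold change 0.71, SE 0.36, adjusted p = 0.128). Of the 22 rows, 19 had a positive log2 fold change, but the cluster median, 0.24 with all libraries, was -0.03 without siUPF1 replicate 2. By type, 1 of 12 PCDHGA rows rose, 0 of 8 PCDHGB rows were called in edgeR (PCDHGB8P alone at an unadjusted p below 0.05, and 0 in DESeq2 and limma-voom), and 1 of 2 PCDHGC rows fell.

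**Figure D4:**
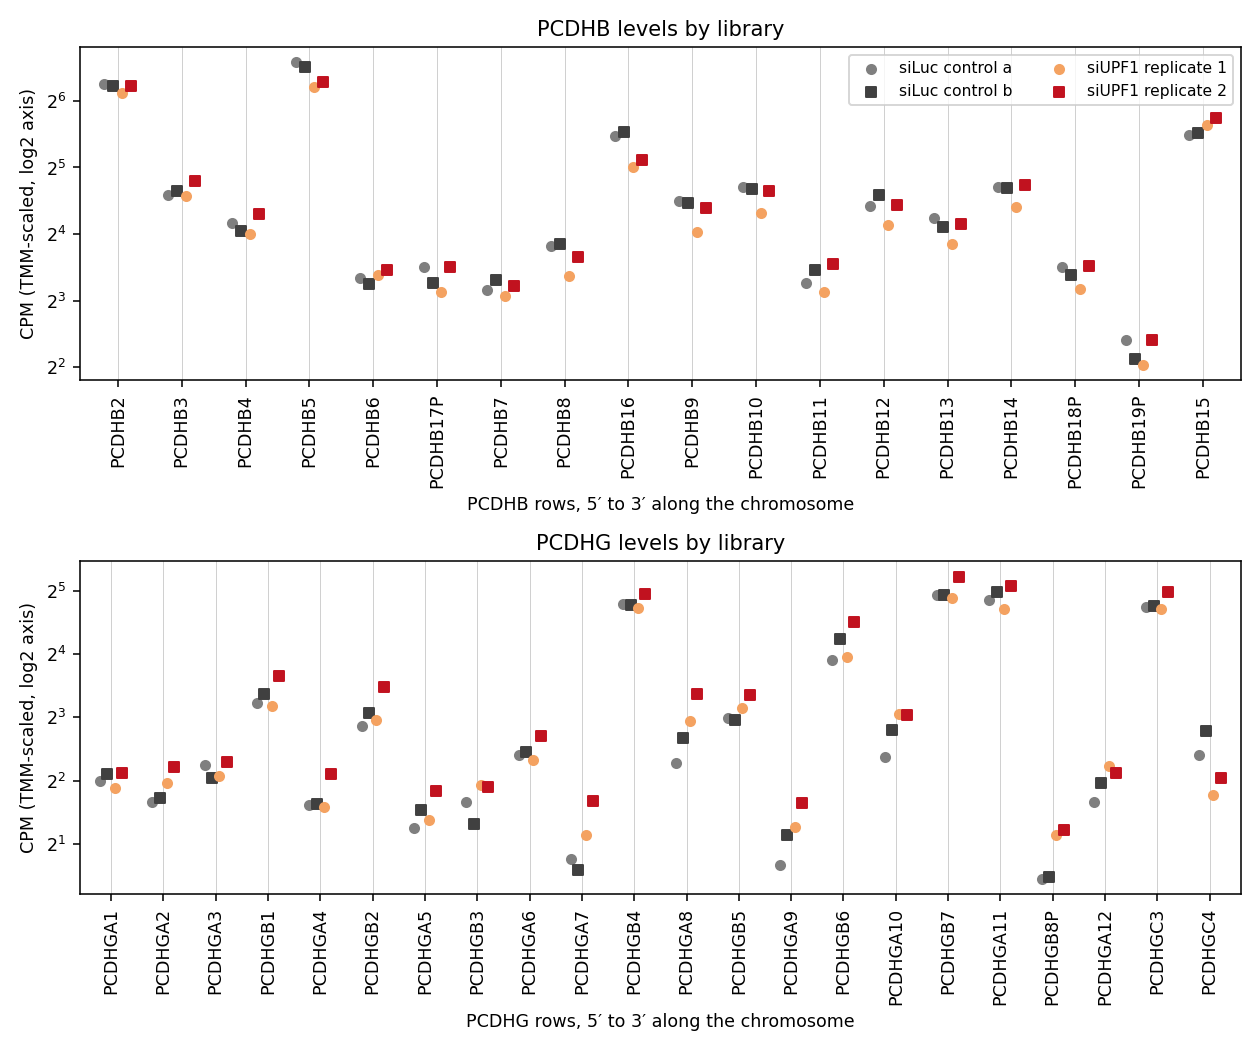
Levels in CPM (vertical axis, log2 scale) of the 18 PCDHB rows (upper panel) and the 22 PCDHG rows (lower panel) in the 2 siLuc controls and 2 siUPF1 libraries, in chromosome order. PCDHB5 and PCDHB16 are the PCDHB rows that fell, and PCDHGA8 and PCDHGC4 the PCDHG rows that passed; siUPF1 replicate 2 lies above replicate 1 in all 18 PCDHB rows.

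Among the 10 non-clustered genes, 2 rose and 2 fell. Of the delta-1 group, PCDH11X stood at 44.1 and 44.2 CPM in the controls and 60.0 and 62.1 CPM in siUPF1. Both groups were tight and far apart (log2 fold change 0.47, SE 0.09, adjusted p = 1.07e-06 in edgeR), and the gene passed in all 12 refits. PCDH11X has a near-identical Y-linked copy, and no source used here says how reads matching both were counted. PCDH1, also known from airway epithelium, was the most abundant protocadherin per kilobase in the controls, at 66.2 CPM per kilobase. It stood at 283 and 267 CPM in the controls and 235 and 249 CPM in siUPF1 (log2 fold change -0.18, SE 0.07, adjusted p = 0.0403). Its groups did not overlap, but the call was lost in 5 of the 12 refits, with adjusted p up to 0.419; once the trend on reads per base was removed, its log2 fold change was -0.07. PCDH7, the third delta-1 member tested, stood at 33.1 and 34.2 CPM against 33.6 and 34.9 CPM, which overlap (log2 fold change 0.02, SE 0.10, adjusted p = 0.887).

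Of the 5 delta-2 genes, PCDH18 rose and 4 did not pass. PCDH18 stood at 121 and 130 CPM in the controls and 158 and 143 CPM in siUPF1; the groups did not overlap (log2 fold change 0.26, SE 0.07, adjusted p = 0.00194). Its adjusted p was 0.0509 in DESeq2 and 0.19 without control a. PCDH10, which can bind the WAVE complex, stood at 24.2 and 26.8 CPM against 28.8 and 29.9 CPM, higher in both siUPF1 libraries without passing (log2 fold change 0.20, SE 0.12, adjusted p = 0.203). PCDH19, the X-linked gene of a childhood epilepsy, stood at 20.6 and 23.9 CPM against 22.6 and 26.0 CPM, which overlap (log2 fold change 0.13, SE 0.13, adjusted p = 0.494).

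PCDH17, which acts at synapses, stood at 7.24 and 7.48 CPM in the controls and 8.50 and 9.27 CPM in siUPF1, higher in both without passing (log2 fold change 0.27, SE 0.19, adjusted p = 0.313). PCDH8, known in neurons as arcadlin, stood at 4.30 and 4.39 CPM in the controls and at 2.001 and 4.28 CPM in siUPF1. Only replicate 1 was clearly low, at 20 counts, and the gene did not pass (log2 fold change -0.44, SE 0.26, adjusted p = 0.209), although it did without replicate 2. In edgeR 0 of the 5 delta-2 genes fell (0 also at an unadjusted p below 0.05, in DESeq2 and in limma-voom).

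PCDH12, a protocadherin of endothelial cells and trophoblast, had the largest fall of the family in the fit with all libraries. It stood at 5.32 and 8.48 CPM in the controls and 2.90 and 4.01 CPM in siUPF1, from 29 to 85 counts. The siUPF1 libraries were lower, and the controls differed from each other as well (log2 fold change -0.999, SE 0.23, adjusted p = 0.000205 in edgeR). Without control b, the higher one, it was -0.62 with an adjusted p of 0.204, and in DESeq2 the adjusted p was 0.0746. PCDH12 overlaps RNF14 on the other strand in GENCODE. RNF14 itself stood at 60.1 and 62.5 CPM in the controls and 81.6 and 71.9 CPM in siUPF1. Whether its reads entered the PCDH12 count was not tested. PCDH20 stood at 7.92 and 9.98 CPM against 7.10 and 6.50 CPM, lower in both siUPF1 libraries without passing (log2 fold change -0.40, SE 0.20, adjusted p = 0.115).

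**Figure D5:**
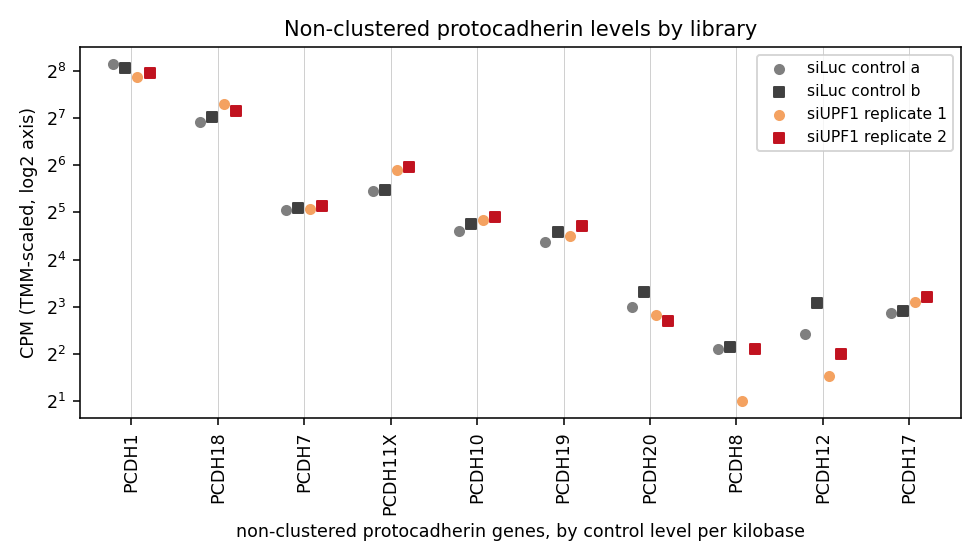
Levels in CPM (vertical axis, log2 scale) of the 10 non-clustered protocadherins in the 2 siLuc controls and 2 siUPF1 libraries, ordered by control level per kilobase. PCDH11X and PCDH18 lie higher in siUPF1, and PCDH1 and PCDH12 lower.

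Counted by overlap alone, both siUPF1 libraries lay above both controls in 20 of the 65 members and below in 10, and the groups overlapped in 35. Over all genes tested, 63.4% did not overlap, with 32.3% above and 31.1% below. The members by cluster were 5 above and 0 below in PCDHA, 2 and 5 in PCDHB, 9 and 1 in PCDHG, and 4 and 4 in the non-clustered genes. Levels per kilobase in the controls ran from 0.593 CPM per kilobase in PCDHGA7 to 66.2 in PCDH1, and the medians were 5.57 in PCDHA, 5.23 in PCDHB, 2.03 in PCDHG and 3.34 in the non-clustered genes.

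Genes that act with the protocadherins, or belong to the same superfamily, were taken from lists. Their counts are to be read against all genes tested, of which 16.8% rose and 9.14% fell in edgeR and 8.19% and 2.99% in DESeq2. Of 20 partners and signalling genes, 0 rose and 2 fell (1 in DESeq2), with a median log2 fold change of -0.07 (for the rise, 0 at an unadjusted edgeR p below 0.05 and 0 in DESeq2 and limma-voom). MARCKS, an actin and membrane protein, fell by 0.24 on the log2 scale (adjusted p = 0.00437) and the synaptic adhesion protein NLGN2 by 0.20 (adjusted p = 0.0233), while CTNNB1, beta-catenin, had a log2 fold change of -0.17 (adjusted p = 0.0533). Of 19 tested genes of promoter choice and chromatin at the clusters, 2 rose and 4 fell (1 and 2 in DESeq2), with a median of -0.11. The DNA methyltransferase DNMT3B, also counted among the pluripotent markers that fell, fell by 0.30 (adjusted p = 0.000296), the cohesin loader MAU2 rose by 0.26 (adjusted p = 0.00187) and the demethylation enzyme TET1 fell by 0.24 (adjusted p = 0.00419). The other 3 called, given because they complete the count, were TRIM28 (-0.22), CTCF (-0.21) and ZNF274 (0.21), and none of the cohesin subunits RAD21, SMC1A, SMC3, STAG1 and STAG2 was called. Of 28 tested genes of the rest of the cadherin superfamily, 9 rose and 3 fell (7 and 1 in DESeq2), with a median of 0.09. CDH6, a classical cadherin, rose by 1.22 on the log2 scale (adjusted p = 6.71e-28), CDHR1 by 0.93 (adjusted p = 2.84e-26) and CDH24 by 0.66 (adjusted p = 2.1e-14), the first more than any protocadherin that rose.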

How the data were processed

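The members and gene lists were chosen with earlier results of these data known. The table deposited by the authors holds whole-number read counts per gene and, per the file headers, RPKM values in further columns deposited by the authors. STAR, DESeq2 and hg19 are named, without roles or versions, in tools and builds per the submitters' processing notes. Strand use and the treatment of reads matching several places are not given in the sources used here, which makes values uncertain for near-identical copies and for rows that overlap a gene on the other strand in GENCODE release 29 (8 PCDHA, 10 PCDHB, 1 of 21 PCDHG rows without the pseudogene, and 2 non-clustered). Of the columns with values per sample, 2 (control RPKM under 1 shared name) were left out. Row lengths were derived from siUPF1 RPKM values and gave CPM per kilobase.

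The main test was edgeR 4.0.16 in R 4.3.3 (glmQLFit and glmQLFTest, two-sided, all 4 libraries, TMM, filterByExpr, which left out 385 of 15942 genes), with Benjamini-Hochberg adjustment at 0.05 over 15557 genes, tested on simulated data. The SE is the size of the log2 fold change divided by the square root of F. The biological coefficient of variation was 4.47%. Depth was 8887239 and 9937231 counts in the controls and 10058515 and 11200973 in siUPF1, so a row at 1 CPM rests on about 10 counts. Named were UPF1, all non-clustered members, in each cluster up to 5 called rows, the 3 with most and the 1 with fewest counts, and 3 genes of each other list with the smallest p. Alternatives were DESeq2 1.42.0, limma-voom (limma 3.58.1), RLE size factors, the library total alone, no filter, a floor of 5 CPM in 2 libraries, thresholds of 0.1 or of a 2-fold change, a loess trend on reads per base removed (span 0.3), the lowest row of PCDHA and of PCDHG subtracted, and each library left out; 12 of these are refits. Promoter sequences are from RefSeq on GRCh38.p14, matched by symbol, and the count table holds no coordinates.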

Additional observations from a re-analysis of the deposited data

How the results depend on the processing

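Counts of members called stayed within 1.5 times the main count under RLE size factors, library size alone, limma-voom, no filter and the 5 CPM filter. In DESeq2, 4 members rose and 2 fell (PCDHA 3 up, non-clustered 1 up and 0 down, PCDHG 0 up and 0 down). With a fold of at least 2 required, 0 members rose and 0 fell in PCDHA, PCDHB, PCDHG and the non-clustered genes, against 2.53% and 0.926% of all genes. At an adjusted p of 0.1, 2 PCDHG rows rose. After removal of the trend on reads per base, 5 PCDHB rows and 1 non-clustered gene fell, and with the lowest row subtracted 2 PCDHG rows fell of the 19 then tested. The cause was not tested. With each library left out in turn, 5 to 18 members rose and 2 to 10 fell; the risers were 3 to 10 in PCDHA, 0 to 1 in PCDHB, 0 to 5 in PCDHG and 1 to 2 of the non-clustered genes, and the fallers 1 to 6 in PCDHB, 0 to 1 in PCDHG and 0 to 3 of the non-clustered genes. Such fits assume that the single library left varies as the other group does. Of the other lists, 0 to 3 partner genes fell, 0 to 2 chromatin genes rose and 0 to 4 fell, and 7 to 10 other cadherin genes rose and 1 to 4 fell. Among named genes, values changed sign only where the main value did not pass. With the trend removed, log2 fold changes were -0.0721 for PCDH7, -0.0513 for PCDHA10 and -0.0177 for PCDHGB4; with the lowest row subtracted, PCDHA10 was at -0.0644. With libraries left out, ranges were -0.0040 to 0.0510 for PCDH7, -0.17 to 0.33 for PCDHA1, -0.0739 to 0.0864 for PCDHA10, -0.23 to 0.15 for PCDHB19P, -0.21 to 0.16 for PCDHGA11, -0.0565 to 0.17 for PCDHGB4 and -0.0515 to 0.29 for PCDHGB7. No paired analysis was possible because both control columns carry the same name and no replicate number. Depth limits the rows under 10 CPM most, PCDHGC4, PCDH12 and PCDHGA8 among the called ones.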
